A study of Mus musculus with 10 samples.

Results

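The effect of losing the kinase MLK3 that is shared by untreated liver and by carcinogen-induced liver tumours was described from 10 libraries, 5 of them from MLK3-knockout (KO) mice and 5 from wild-type (WT) mice. It was defined as the main effect of genotype with the treatment as a covariate, together with the genes that set the genotypes apart in both treatments. A gene was said to separate the genotypes when every KO library lay above, or every KO library below, every WT library among the water libraries and among the carcinogen libraries, in the same direction. Of the 39056 genes in the table, 21045 had at least 1 count and 15811 were abundant enough to be tested. Of these, 598 (3.78%) separated the genotypes in both treatments and 3 passed the test of the main effect, 2 of them higher in KO (0.0126% of genes tested) and 1 lower (0.00632%).

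All mice were C57BL/6, killed at 11 months of age, and the protocol speaks of male pups. The DEN/PB KO group (3 libraries, source labelled liver tumour) and the DEN/PB WT group (3 libraries, same source) had received the liver carcinogen DEN into the abdominal cavity at 2 weeks of age, at 5 µg per g of body weight. After a pause of 1 week they drank water with 0.05% of the tumour promoter PB for the rest of the experiment. The water KO group (2 libraries, source labelled normal liver) and the water WT group (2 libraries, same source) drank plain autoclaved water. The series calls the libraries of a group biological replicates. Treatment and tissue coincide, so that DEN/PB exposure and tumour cannot be told apart, and the extraction protocol speaks of liver tissue for all mice. How MLK3 was deleted, whether KO and WT mice were littermates, and how tumour was separated from the liver around it were not given in the sources used here.

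MLK3, encoded by Map3k11, is a mixed-lineage kinase that phosphorylates the MAP2 kinases upstream of JNK and p38, and is activated by Rac and Cdc42 and by stress and inflammatory signals. JNK in turn acts on AP-1 transcription factors. The liver holds hepatocytes, which carry most of its RNA, and other cells, among them Kupffer cells, the resident macrophages that line the sinusoids and take up particles and bacteria. MARCO is a scavenger receptor of such macrophages that binds bacteria and modified lipoproteins.

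Libraries were made by 3' tag sequencing from 50 ng of total RNA, and each held 12408749 to 18081487 counted reads, so that 3 counts, used as a floor for a gene without counts, correspond to 0.156 to 0.231 CPM (reads scaled to a common library size) per library. Floors cover counting error only. Hepatocyte markers were present in every library: albumin (Alb) stood between 21397 and 62170 CPM, transthyretin (Ttr) between 5657 and 9753 CPM and the nuclear receptor Hnf4a between 109 and 221 CPM. Some libraries stood apart from their group. The summed level of 29 oncofetal and liver tumour markers was 150 CPM in DEN/PB KO replicate 2, against 3857 and 1239 CPM in the other DEN/PB KO libraries, 3661 to 4521 CPM in the DEN/PB WT libraries, and 95.7 to 151 CPM in the 4 water libraries. By these markers that library was at the level of untreated liver, although its label gives tumour as the source. Water WT replicate 1 had 58.1 CPM of the p53 target Cdkn1a, against 7 CPM in water WT replicate 2. The counts of called and of separating genes are given with and without each of them, as are the effects on Cdkn1a (without the water library) and on Upp2 and Inmt (without the tumour library).

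The start regions of 3 genes are shown. The first 2 passed the test of the main effect and separated the genotypes in both treatments, and the third had reads only in KO libraries. Each is the stretch of 250 bases before the start of the gene in RefSeq (GRCm38.p6), read 5′ to 3′ on the gene's strand. Capitals mark matches, on either strand, to a PU.1 core (GAGGAA; PU.1 is a transcription factor of macrophages) or to a cAMP response element (CRE, TGACGTCA), which binds CREB and ATF factors. The AP-1 motif (TGANTCA) was searched as well and had no match in these 3 stretches.

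Marco (chr1:120505025-120505274, minus strand): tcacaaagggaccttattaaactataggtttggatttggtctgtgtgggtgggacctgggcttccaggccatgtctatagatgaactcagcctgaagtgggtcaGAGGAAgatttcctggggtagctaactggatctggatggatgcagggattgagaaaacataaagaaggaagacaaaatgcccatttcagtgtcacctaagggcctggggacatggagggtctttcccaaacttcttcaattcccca

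Tmem254b (chr14:26207026-26207275, minus strand): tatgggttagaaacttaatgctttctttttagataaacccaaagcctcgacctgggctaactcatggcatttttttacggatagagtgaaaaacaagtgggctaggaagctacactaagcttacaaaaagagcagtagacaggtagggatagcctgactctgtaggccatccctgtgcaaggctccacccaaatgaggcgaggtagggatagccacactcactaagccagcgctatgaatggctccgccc

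Spag4 (chr2:156064963-156065212, plus strand): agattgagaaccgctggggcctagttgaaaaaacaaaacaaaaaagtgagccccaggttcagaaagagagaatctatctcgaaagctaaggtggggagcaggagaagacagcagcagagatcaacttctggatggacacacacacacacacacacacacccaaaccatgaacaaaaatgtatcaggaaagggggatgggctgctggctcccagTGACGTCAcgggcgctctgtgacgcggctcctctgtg

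The stretch before Marco held 1 PU.1 core, 146 bases before the start, a motif found in 23.25% of 32851 stretches of the same length before mouse genes. The stretch before Spag4 held 1 CRE, 37 bases before the RefSeq start, a motif found in 1.546% of them. That stretch ends at 156065212, past the Spag4 start of 156065175 given below, so by that gene position the CRE lies inside the gene. The Tmem254b stretch likewise overlaps the gene position given below. The AP-1 motif was found in 6.749% of the 32851 stretches. The stretch before Gpnmb, a macrophage gene lower in KO, was searched as well and held no match to any of these motifs. A match describes letters and not a bound site.

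Marco (ENSMUSG00000026390.7, chromosome 1, 120474538 to 120505024, minus strand) was several-fold higher in KO than in WT mice in tumours and in untreated liver. Its level was 32.1, 31.6 and 51.1 CPM in DEN/PB KO tumours, against 3.33, 2.26 and 10.6 CPM in DEN/PB WT tumours. In water-treated liver it was 47.4 and 62.4 CPM in KO mice, against 3.71 and 5.24 CPM in WT mice. The lowest of the 5 KO libraries stood at 31.6 CPM and the highest of the 5 WT libraries at 10.6 CPM, so the genotypes did not overlap. Marco rose in KO by 3.14 on the log2 scale (8.81-fold; SE 0.397, adjusted p = 0.0117). Within DEN/PB tumours the fold change was 7.09 (log2 2.83, SE 0.483, adjusted p = 0.00245), and within water-treated liver it was 12.3 (log2 3.62, SE 0.612, adjusted p = 0.121 with 2 libraries a group). The difference between these effects did not pass the test (log2 -0.79, adjusted p = 0.735).

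The 6 other defining markers of Kupffer cells each missed the threshold of the main effect in edgeR, and they differed in their pattern over the treatments. In DESeq2, Folr2 (adjusted p = 0.034) and Cd163 (0.0266) passed, and Clec4f (0.0514), Timd4 (0.431), Vsig4 (0.9305) and Cd5l (0.9325) did not. Clec4f, a lectin of Kupffer cells, stood at 30.2, 30.6 and 62.2 CPM in DEN/PB KO tumours, against 24.4, 14.3 and 14.5 CPM in DEN/PB WT tumours, and at 43.1 and 68.3 CPM in water KO liver, against 33 and 38 CPM in water WT liver (log2 0.98, SE 0.269, adjusted p = 0.226). Folr2, a folate receptor of resident macrophages, stood at 21.8, 16.2 and 28.9 CPM in DEN/PB KO tumours, against 5.42, 6.19 and 11.7 CPM in DEN/PB WT tumours, and at 17.2 and 31.8 CPM in water KO liver, against 14.7 and 13.7 CPM in water WT liver (log2 1.23, SE 0.32, adjusted p = 0.221; adjusted p = 0.034 in DESeq2). Both genes separated the genotypes in both treatments. Vsig4, a complement receptor (log2 0.12, SE 0.255), and the secreted macrophage protein Cd5l (log2 -0.07, SE 0.221) overlapped between the genotypes in both treatments.

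Timd4 and Cd163 separated the genotypes in tumours and overlapped in liver. Timd4, a receptor for dying cells, stood at 6.71, 8.66 and 9.95 CPM in DEN/PB KO tumours, against 0.469, 0.728 and 1.99 CPM in DEN/PB WT tumours (log2 2.98, SE 0.923, adjusted p = 0.091). In water it was 5.09 and 0.779 CPM in KO liver, against 8.80 and 3.47 CPM in WT liver (main effect log2 1.46, SE 1.01, adjusted p = 0.678). The hemoglobin scavenger receptor Cd163 stood at 9.63, 15.2 and 19.5 CPM in DEN/PB KO tumours, against 0.0521, 0.146 and 1.73 CPM in DEN/PB WT tumours (log2 4.52, SE 0.86, adjusted p = 0.00538), a larger fold change there than that of Marco. In water it was 12 and 21.7 CPM in KO liver, against 13.5 and 17.8 CPM in WT liver, and these ranges overlapped (main effect log2 2.74, SE 1.00, adjusted p = 0.329). For Cd163 the test of the difference between treatments gave an adjusted p of 0.1.

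The summed level of the 6 defining markers other than Marco was 415 to 551 CPM in DEN/PB KO tumours, against 355 to 564 CPM in DEN/PB WT tumours, and 255 and 416 CPM in water KO liver, against 253 and 286 CPM in water WT liver. Cd5l made up more of this sum than the other 5 together in every library. Relative to 1000 CPM of these markers, Marco stood at 75.5, 76.2 and 92.7 CPM in DEN/PB KO tumours, against 6.31, 6.37 and 18.8 CPM in DEN/PB WT tumours. In liver the same ratio was 185 and 150 in water KO, against 14.6 and 18.3 in water WT. The genotypes stayed apart in this ratio in both treatments. In bulk RNA, a change in the number of cells of a type and a change in RNA per cell cannot be told apart.

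**Figure D1:**
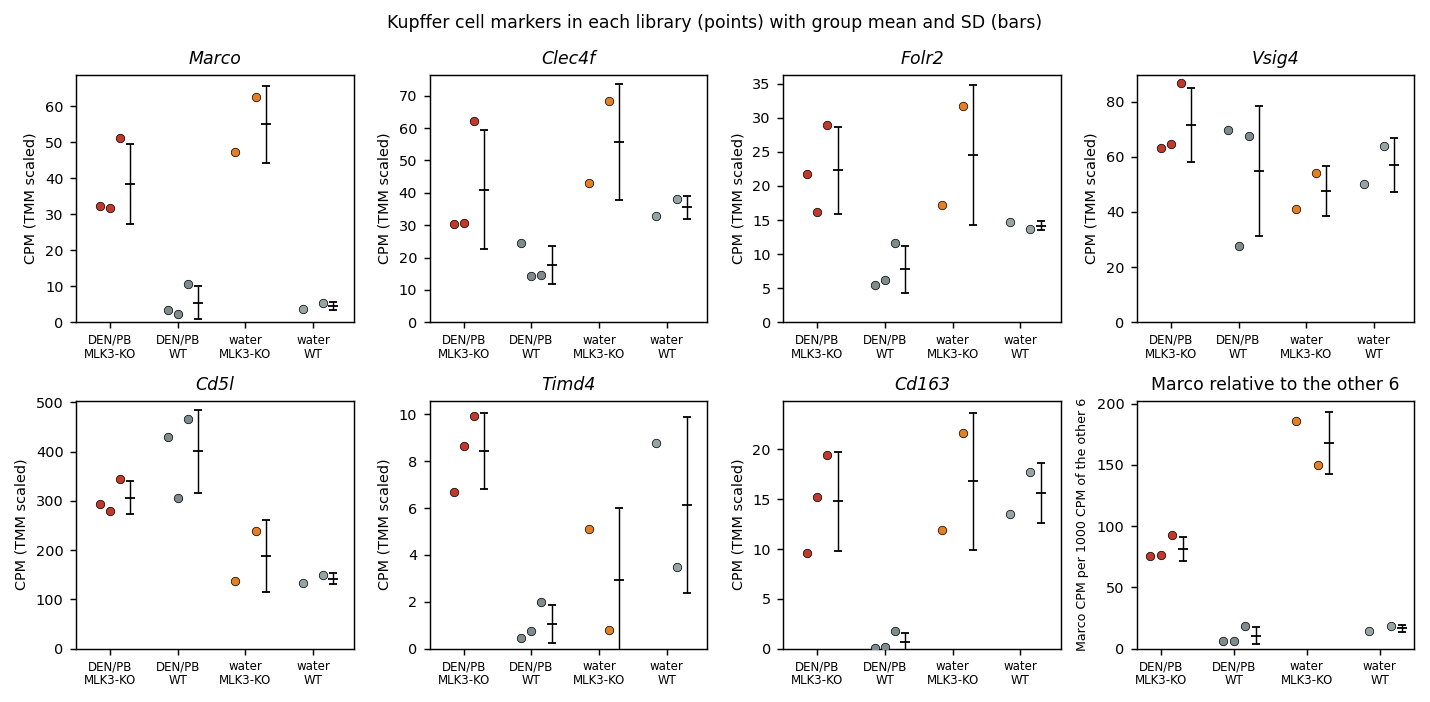
Levels of Marco and 6 other Kupffer cell markers in CPM (scaled by TMM, linear axes from 0) and, in the last panel, Marco per 1000 CPM of the other 6 markers. Each point is a library and bars give the group mean and SD (n = 3 for DEN/PB, n = 2 for water); Marco stood above 31 CPM in all KO libraries and below 11 CPM in all WT libraries.

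Tmem254b, a gene for a small membrane protein (ENSMUSG00000021867.16, chromosome 14, 26203369 to 26207041, minus strand), was the other gene that rose. It stood at 177, 124 and 142 CPM in DEN/PB KO tumours, against 17.1, 24 and 12 CPM in DEN/PB WT tumours. In water it stood at 237 and 193 CPM in KO liver, against 44.1 and 91.5 CPM in WT liver. All 5 KO libraries lay above all 5 WT libraries, and among WT mice the livers lay above the tumours. The main effect was 2.50 on the log2 scale (5.66-fold; SE 0.315, adjusted p = 0.0117), with 3.06 in DEN/PB tumours (adjusted p = 2.81e-05) and 1.67 in water-treated liver (adjusted p = 0.332).

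The value of Tmem254b is uncertain as to which copy it measures. Its near copies Tmem254a and Tmem254c lie on the same chromosome and had 0 counts in all 10 libraries, while Tmem254b had 15912. The last 300 bases of the transcript Tmem254b-202 occur without a difference in transcripts of both copies, and the regions around the starts share a run of 284 identical bases with each. A 3' tag from the end of Tmem254b-202 cannot be placed on 1 copy by its sequence. The last 300 bases of the transcript Tmem254b-201 occur in full in the transcript Tmem254a-204. With Tmem254c their longest identical run was 134 bases.

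Cyp2b9, a cytochrome P450 of female-biased expression in mouse liver, was the only gene called lower. It stood at 5.09, 5.45 and 15.3 CPM in DEN/PB KO tumours, against 71.2, 70.7 and 62.6 CPM in DEN/PB WT tumours. In water it had no count in either KO library, against 0 and 0.126 CPM in WT liver, which is under the floor. The main effect (log2 -2.99, SE 0.439, adjusted p = 0.0427) therefore describes the tumours, and Cyp2b9 did not separate the genotypes in water.

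These calls depended on single libraries. Without DEN/PB WT replicate 1 no gene was called (adjusted p = 0.128 for Marco and Tmem254b and 0.33 for Cyp2b9; 792 genes higher and 558 lower at an unadjusted p under 0.05), and without DEN/PB WT replicate 2 none was called either (adjusted p = 0.0586 for Marco, 0.0836 for Tmem254b and 0.243 for Cyp2b9; 811 higher and 578 lower unadjusted). Without DEN/PB KO replicate 3 the adjusted p was 0.0604 for Marco and 0.0528 for Tmem254b, and Cyp2b9 alone was called (adjusted p = 0.0136). Without DEN/PB KO replicate 2, Marco and Tmem254b were called (adjusted p = 0.0356 for each) and Cyp2b9 was not (adjusted p = 0.164). Leaving out DEN/PB WT replicate 3 or DEN/PB KO replicate 1 also ended the call of Cyp2b9 (adjusted p = 0.148 and 0.161), not those of Marco and Tmem254b. Without water WT replicate 1, 5 genes were called, these 3 along with Wdfy1 and Cyp2b10, a PB-inducible P450 named after its values were seen.

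The number of genes called differed widely between tests of the same question. At an unadjusted p under 0.05 edgeR had 1009 genes higher (6.38%) and 744 lower (4.71%). DESeq2 called 266 genes higher (1.81% of 14679 with an adjusted p) and 116 lower (0.79%), together 2.6%, with all 3 genes above among them. A model with a term per group, averaging the 2 genotype differences with equal weight, called 184 higher (1.16%) and 45 lower (0.285%). The 229 genes of that model had a median log2 fold change of 2.53 in DEN/PB tumours and -0.03 in water-treated liver, and 84 of them separated the genotypes in both treatments. The test of a difference between the treatments also called 137 of the 229.

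Tested within each treatment, KO tumours had 514 genes higher (3.25%) and 201 lower (1.27%) than WT tumours. KO liver had 0 genes higher (0%) and 1 lower (0.00632%) than WT liver, with 1151 genes (7.28%) at an unadjusted p under 0.05 in edgeR, the tool used for these tests. That gene was Fam102b, with 0 counts in both water KO livers, against 5.28 and 3.41 CPM in water WT livers (adjusted p = 0.0472). In the tumours it stood at 5.70, 5.17 and 7.14 CPM in DEN/PB KO, against 18.5, 20 and 11.9 CPM in DEN/PB WT. No gene was called in both treatments by edgeR, and 113 genes (0.715%) had an unadjusted p under 0.05 and the same direction in both. DESeq2 was not run within treatments.

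Of the 598 separating genes, 337 were higher in KO (2.13%) and 261 lower (1.65%). The share was 0.149% of genes under 1 CPM in the higher genotype and 8.34% of genes at 50 CPM or more, so it describes well-measured genes better than weak ones. The requirement of 2 against 2 and 3 against 3 libraries is met by some genes without any effect, and no p was computed for the count. With DEN/PB KO replicate 2 left out, 430 genes separated higher and 376 lower, and with water WT replicate 1 left out 556 and 507, since fewer libraries are easier to separate. The 337 higher genes had a median log2 fold change of 0.90 in DEN/PB tumours and 0.49 in water-treated liver, and in 257 of them (76.3%) the change was larger in the tumours. The 261 lower genes had medians of -0.97 in DEN/PB tumours and -0.87 in water-treated liver, and in 138 of them (52.9%) the change was larger in the tumours. Over all genes tested the medians were -0.03 in DEN/PB tumours and 0 in water-treated liver, and 49.8% had the larger change in the tumours.

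The test of a difference between the genotype effects in the treatments called 18 of the higher and 1 of the lower separating genes, beside 251 (1.59%) of all genes tested. At an unadjusted p under 0.05 it had 63 of the higher and 20 of the lower genes, beside 2006 (12.7%) of all. In a stricter form, all 5 KO libraries lay above all 5 WT libraries in 89 genes (0.563%) and below them in 56 genes (0.354%). DESeq2 called 128 of the 337 higher and 66 of the 261 lower separating genes, beside 1.81% higher and 0.79% lower over all genes with an adjusted p. The separating genes were chosen from the same values, so a larger share among them follows from the choice and supports nothing further.

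**Figure D2:**
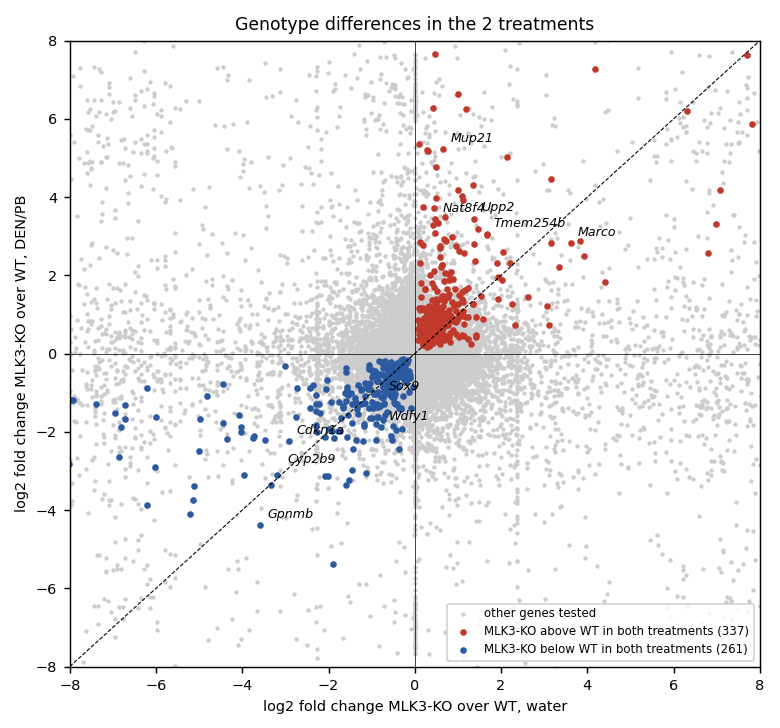
Log2 fold change of KO over WT in water-treated liver (horizontal) and in DEN/PB tumours (vertical) for the genes tested, with the dashed line where both are equal. Red points are the 337 genes with KO above WT and blue points the 261 genes with KO below WT in both treatments, a direction fixed by how they were chosen; 183 genes, 11 of them separating, lie beyond the axis limits of 8, and Marco lies near the line while Mup21 and Nat8f4 lie far above it.

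By a rule that took separating genes by their p, 24 genes were described, 13 higher and 11 lower in KO. Besides Marco and Tmem254b none passed edgeR's main test. All 24 passed DESeq2 and the model with a term per group, and all 24 kept their direction with any library left out. The chosen genes had to separate, so these counts describe them and support nothing further.

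The higher genes held several enzymes of hepatocytes. Upp2, a uridine phosphorylase of the liver, stood at 316, 636 and 515 CPM in DEN/PB KO tumours, against 60.3, 52.6 and 20.9 CPM in DEN/PB WT tumours, and at 313 and 502 CPM in water KO liver, against 90.8 and 223 CPM in water WT liver (log2 2.64, SE 0.458, adjusted p = 0.122). All 5 KO libraries were above all 5 WT libraries. Mgll, the lipase that cleaves monoacylglycerols, stood at 148, 239 and 188 CPM in DEN/PB KO tumours, against 42.7, 54.8 and 60.2 CPM in DEN/PB WT tumours, and at 293 and 366 CPM in water KO liver, against 213 and 201 CPM in water WT liver (log2 1.39, SE 0.245, adjusted p = 0.122). Inmt, which methylates indole amines, stood at 195, 452 and 329 CPM in DEN/PB KO tumours, against 25.6, 50.9 and 47.1 CPM in DEN/PB WT tumours, and at 380 and 265 CPM in water KO liver, against 180 and 174 CPM in water WT liver (log2 2.15, SE 0.402, adjusted p = 0.142). For Mgll the WT livers lay above the KO tumours in part, so that the genotypes separated only within each treatment, whereas Inmt separated over all libraries. DEN/PB KO replicate 2 was the highest KO tumour for all 3 genes, and without it the main effect was 2.41 for Upp2 and 1.88 for Inmt.

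In Inmt the genotype effect was larger in the tumours (log2 2.98 in DEN/PB and 0.86 in water, adjusted p of the difference 0.0397). Srd5a1, a steroid 5-alpha reductase, had a log2 fold change of 2.94 in DEN/PB and 0.67 in water (adjusted p of the difference 0.0313). Hes6, a transcription factor of the HES family, had 1.79 in DEN/PB and 0.41 in water (adjusted p of the difference 0.0492), and Nat8f4, an N-acetyltransferase family member, had 3.44 in DEN/PB and 0.47 in water (9.87e-05). Nat8f4 stood at 187, 219 and 186 CPM in DEN/PB KO tumours, against 19.4, 17.8 and 17.4 CPM in DEN/PB WT tumours, and at 258 and 360 CPM in water KO liver, against 211 and 236 CPM in water WT liver. Its genotypes separated in both treatments, but by a margin in liver that was small beside that in the tumours.

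Mcm10, a factor that loads the replication machinery onto DNA, stood at 90.6, 193 and 87.5 CPM in DEN/PB KO tumours, against 27.8, 11.6 and 15.6 CPM in DEN/PB WT tumours, and at 131 and 145 CPM in water KO liver, against 71.9 and 69.4 CPM in water WT liver (log2 2.04, SE 0.375, adjusted p = 0.142). The genotypes did not overlap over all libraries, and among WT mice the livers lay above the tumours. Of the 39 tested cell cycle genes, 1 separated higher (Tk1) and 2 lower (Cdkn1a and Mki67), counts too small to read against the 2.13% and 1.65% of all tested genes that did so. The remaining higher genes were the retinol dehydrogenase Rdh16 (log2 1.98), the ion channel gene Tmem63a (1.49), the cAMP phosphodiesterase Pde8a (1.45) and Clec2d, a ligand of an inhibitory receptor of NK cells (1.05). In Clec2d the effect was alike in both treatments (log2 0.92 in DEN/PB tumours and 1.24 in water-treated liver).

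Among the lower genes, Gpnmb, a glycoprotein of lipid-laden macrophages, had the smallest p after the called genes. It stood at 5.16, 1.05 and 1.23 CPM in DEN/PB KO tumours, against 98.2, 30.1 and 27.3 CPM in DEN/PB WT tumours, and at 0.172 and 0.142 CPM in water KO liver, against 3.39 and 0.568 CPM in water WT liver (log2 -4.20, SE 0.653, adjusted p = 0.0584). The water KO values were at or under the floor of 3 counts (0.172 and 0.212 CPM in those libraries), so no fold is given for liver alone. In DEN/PB KO replicate 1 Gpnmb was above both values of untreated WT liver.

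Wdfy1, an adaptor of Toll-like receptor signalling, stood at 17.3, 21.8 and 23.1 CPM in DEN/PB KO tumours, against 71.7, 82.1 and 75.8 CPM in DEN/PB WT tumours, and at 7.72 and 10.6 CPM in water KO liver, against 14.4 and 16.8 CPM in water WT liver (log2 -1.45, SE 0.24, adjusted p = 0.0946). Ifngr1, the ligand-binding chain of the interferon gamma receptor, stood at 60.9, 35.4 and 71.5 CPM in DEN/PB KO tumours, against 125, 132 and 151 CPM in DEN/PB WT tumours, and at 22.5 and 20.2 CPM in water KO liver, against 42.5 and 35.6 CPM in water WT liver (log2 -1.12, SE 0.204, adjusted p = 0.142). In both genes the tumours of each genotype lay above its livers. Wdfy1 overlaps Mrpl44 on the opposite strand, and the strand setting of the counting was not given in the sources used here.

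Sox9, a transcription factor of bile duct and progenitor cells, stood at 67.6, 38.3 and 49 CPM in DEN/PB KO tumours, against 121, 107 and 108 CPM in DEN/PB WT tumours, and at 51 and 54.8 CPM in water KO liver, against 102 and 78.8 CPM in water WT liver (log2 -0.98, SE 0.186, adjusted p = 0.142). All 5 KO libraries were below all 5 WT libraries, and tumours and livers of KO mice overlapped. The basement membrane collagen Col4a1 (log2 -1.33) and Shroom3, which shapes the apical cell surface (-1.26), separated within each treatment. Col4a1 overlaps Col4a2 on the opposite strand.

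Cdkn1a, the cell cycle inhibitor p21, stood at 18.7, 5.45 and 10.9 CPM in DEN/PB KO tumours, against 33.5, 93.6 and 38.7 CPM in DEN/PB WT tumours, and at 4.18 and 4.46 CPM in water KO liver, against 58.1 and 7 CPM in water WT liver (log2 -2.51, SE 0.512, adjusted p = 0.171). In liver the separation was wide only against WT replicate 1, and without that library the main effect was -1.83. The CDK subunit gene Cks1b (log2 -1.25) and Acsl4, which activates arachidonic acid (-0.86), were lower as well. Cks1b was one of the 6 described genes with the larger effect in liver (log2 -1.01 in DEN/PB tumours and -1.63 in water-treated liver). The stress-induced gene Nupr1 (-3.33) and the protease inhibitor gene Wfdc15b (-4.24) were under the floor in both water KO livers. Wfdc15b was at the floor of 3 counts in water WT replicate 1 too (0.189 CPM), against 5.11 CPM in water WT replicate 2. Its separation in liver was therefore not resolved. Wfdc15b varied widely, at 51.4, 308 and 37 CPM in the 3 DEN/PB WT tumours.

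**Figure D3:**
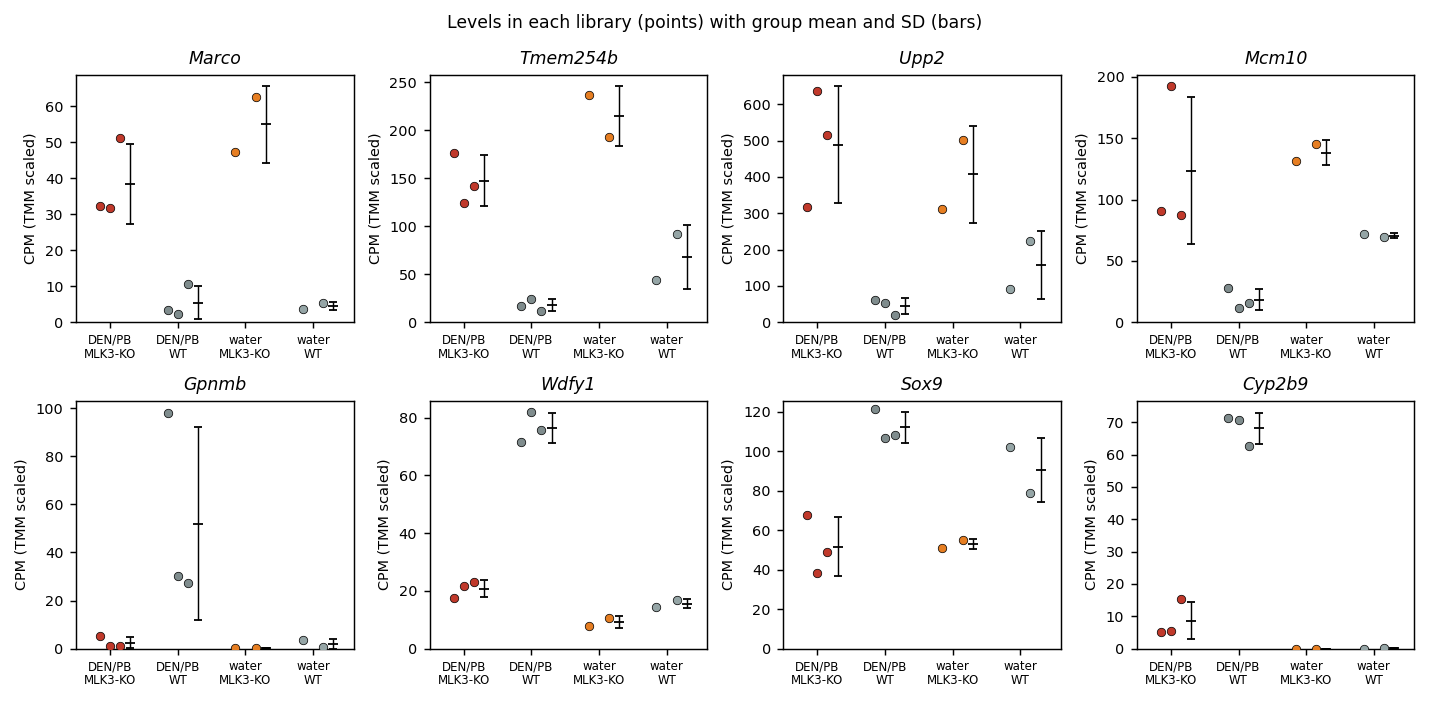
Levels of 8 genes in CPM (scaled by TMM, linear axes from 0) in each library, with group mean and SD (n = 3 for DEN/PB, n = 2 for water). Marco, Tmem254b, Upp2, Mcm10 and Sox9 separate all KO from all WT libraries, Gpnmb and Wdfy1 do so within each treatment, and Cyp2b9 lies at 0 to 0.126 CPM in all water libraries.

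Some genes had reads in one genotype and none in the other. They were chosen after their values were seen, as the genes with at least 3 counts in each library of one genotype and 0 counts in all 5 of the other. There were 3 with reads in KO and 0 with reads in WT. The non-coding gene 1700080G11Rik (chromosome 4, 127531622 to 127532885, plus strand) had 5, 24 and 9 counts in DEN/PB KO tumours and 89 and 92 counts in water KO liver, against 0 in each WT library. With the floor of 3 counts taken over the 5 WT libraries together, it was at least 78.6-fold higher in KO. The non-coding gene Gm39469 (chromosome 9, 124270358 to 124282139, minus strand) had 23, 36 and 13 counts in DEN/PB KO tumours and 93 and 22 counts in water KO liver, against 0 in each WT library, which makes it at least 67.1-fold higher.

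Spag4, a SUN domain protein of the nuclear envelope described in testis (chromosome 2, 156065175 to 156070617, plus strand), had 36, 15 and 14 counts in DEN/PB KO tumours and 20 and 32 counts in water KO liver, against 0 in each WT library, at least 42-fold higher. None of the 3 passed edgeR's main test (adjusted p = 0.194, 0.201 and 0.221 for 1700080G11Rik, Gm39469 and Spag4), whereas all 3 passed DESeq2 (adjusted p = 0.000121, 0.000124 and 0.00193). In KO mice Spag4 and Gm39469 overlapped between the treatments, and 1700080G11Rik was higher in both livers than in the tumours. They lie on 3 different chromosomes, none of which carries Map3k11, and the cause of their difference between the genotypes was not tested.

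The targeted gene itself was not set apart. Map3k11 (chromosome 19, 5688742 to 5702865, plus strand) stood at 10, 10.3 and 5.84 CPM in DEN/PB KO tumours, against 12.2, 9.54 and 14.3 CPM in DEN/PB WT tumours, and at 5.38 and 5.81 CPM in water KO liver, against 7.92 and 14.9 CPM in water WT liver. The genotypes overlapped in the tumours and not in liver (main effect log2 -0.69, SE 0.357, adjusted p = 0.497). A tag from the 3' end may lie outside a deleted part, so the level is no check of the knockout or of the labels, and Map3k11 overlaps Pcnx3 on the opposite strand. Of its relatives, Map3k12 (log2 -1.59, SE 0.808) and Map3k10 (log2 0.60, SE 0.967) did not pass, and Map3k9, with 19 counts in all, was too low to test. Among the 26 tested genes of the MLK and JNK cascade none was called and 2 were lower at an unadjusted p under 0.05, and DESeq2 called none. The only member that separated was Rac1, the GTPase that activates MLK3, at 22.7, 11.6 and 16.8 CPM in DEN/PB KO tumours, against 27.1, 28.3 and 28.7 CPM in DEN/PB WT tumours, and at 20.9 and 13.5 CPM in water KO liver, against 22.2 and 32.9 CPM in water WT liver (log2 -0.70, SE 0.243, adjusted p = 0.296). The medians of the cascade were -0.23 in DEN/PB tumours and -0.08 in water-treated liver.

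Genes near Map3k11 were looked at because a knockout allele can carry a stretch of the chromosome in which it was made. Of 237 tested genes within 10 Mb, edgeR called none and 30 (12.7%, against 11.1% of the rest) had an unadjusted p under 0.05. DESeq2 called 10 of the 237, beside 2.6% of all genes with an adjusted p. In this window 14 genes (5.91%) separated the genotypes in both treatments, against 3.75% of all other genes, with 7 higher and 7 lower. The nearest well-measured one was Malat1, a nuclear non-coding RNA whose start lies 0.107 Mb from that of Map3k11. It stood at 1646, 1553 and 1786 CPM in DEN/PB KO tumours, against 3012, 3282 and 3269 CPM in DEN/PB WT tumours, and at 1549 and 1209 CPM in water KO liver, against 2069 and 1757 CPM in water WT liver (log2 -0.75, SE 0.186, adjusted p = 0.212; adjusted p = 0.00049 in DESeq2). Mrpl49, a subunit of the mitochondrial ribosome, lay 0.365 Mb away and was higher in KO (log2 1.27, SE 0.308, adjusted p = 0.212). No sequence variants were at hand, and a difference in genetic background was not tested.

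A list of 4 genes reported to vary between substrains of C57BL/6 was examined for the same reason. Of these, Wdfy1 and Nnt, the proton-pumping transhydrogenase of mitochondria, separated the genotypes, both lower in KO, and both passed DESeq2. Nnt stood at 14.6, 42.5 and 36.6 CPM in DEN/PB KO tumours, against 73, 51.1 and 68.9 CPM in DEN/PB WT tumours, and at 21.3 and 19.3 CPM in water KO liver, against 27.8 and 50.2 CPM in water WT liver (log2 -1.04 in DEN/PB and -0.94 in water, adjusted p = 0.225). Nnt had reads in all 10 libraries. A tag from the 3' end may lie outside a deleted part, so these reads are no check of the substrain. Entpd4 and Entpd4b were low, at no more than 2.55 and 3.32 CPM, and overlapped between the genotypes. The list's medians were -0.19 in DEN/PB tumours and -0.15 in water-treated liver, and a part of the substrain in these values was not tested.

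The lists that follow are described by how many tested members separated the genotypes and by their median log2 fold changes, beside the 2.13% higher and 1.65% lower over all genes. Except for Marco and Cyp2b9 edgeR's main test called no member of any list, so counts at an unadjusted p under 0.05 and DESeq2's calls are given. Over all genes the unadjusted shares in edgeR were 6.38% higher and 4.71% lower. DESeq2 called 1.81% higher and 0.79% lower of the genes with an adjusted p. Each list count is to be read beside these shares.

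Among macrophage genes, the 26 resident Kupffer cell genes had 7 members higher and 1 lower at an unadjusted p under 0.05, DESeq2 called 4 higher, and Marco, Folr2 and Clec4f separated. Their medians were 0.38 in DEN/PB tumours and 0.20 in water-treated liver. The 24 scavenger receptors had 4 higher and 1 lower, DESeq2 called 4 higher and 1 lower, and besides Marco the lysosomal receptor Scarb2 separated higher and the endotoxin co-receptor Cd14 lower (medians -0.10 in DEN/PB and 0.01 in water). The 20 genes of monocytes and infiltrating macrophages had 7 lower and none higher, DESeq2 called 2 lower, and Gpnmb, the elastase Mmp12, the tetraspanin Cd9 and fibronectin (Fn1) separated lower (medians -0.98 in DEN/PB and -0.01 in water). In liver Mmp12 of this list stood at 0.172 and 0 CPM in water KO, against 6.91 and 0.189 CPM in water WT. Its values of 0.172 and 0.189 CPM were each at the floor of 3 counts, so its separation in liver was not resolved. The summed level of that list was 2287, 1132 and 1814 CPM in DEN/PB KO tumours, against 4417, 4136 and 4293 CPM in DEN/PB WT tumours, and 891 and 923 CPM in water KO liver, against 1114 and 901 CPM in water WT liver. Resident and infiltrating macrophage genes thus had medians of opposite sign in the tumours, and the part of cell number in either was not tested.

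In the lists of other cell types few or no members separated, counts too small to read against the 2.13% and 1.65% of all genes. Some of these lists were weakly measured, with T and NK cell genes summing to 25.4 to 121 CPM per library. The 25 T and NK cell genes and the 16 B and plasma cell genes had no member past an unadjusted p of 0.05, none called by DESeq2 and none that separated (T and NK cell medians -0.02 in DEN/PB and 0 in water, B and plasma cell medians 0.33 in DEN/PB and 0.27 in water). The B and plasma cell median in DEN/PB was 0.20 when genes without counts in a group stood at their limit. Among 16 genes of MHC class II antigen presentation 1 was higher unadjusted, none was called by DESeq2 and none separated (medians -0.11 in DEN/PB and 0.46 in water). Of 9 neutrophil genes 1 was lower unadjusted, and of 8 red blood cell genes 1 was lower unadjusted, with none called by DESeq2 and none that separated (neutrophil medians 0.01 in DEN/PB and -0.44 in water, red blood cell medians 0.27 in DEN/PB and 0.48 in water). The 24 endothelial genes had 2 higher and 2 lower unadjusted, and the lymphatic receptor Flt4 separated lower and was called by DESeq2 (log2 -1.36, SE 0.373; medians -0.06 in DEN/PB and -0.02 in water). The 27 stellate cell and matrix genes had 1 higher and 5 lower, DESeq2 called 1 lower, and Ecm1 separated higher and Col4a1 lower (medians 0.01 in DEN/PB and 0.12 in water). Of 19 cholangiocyte genes 2 were lower unadjusted, and Sox9 alone separated and was called by DESeq2 (medians -1.12 in DEN/PB and 0 in water).

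Hepatocyte products were mixed. The 33 secreted proteins had 2 higher and 10 lower unadjusted, DESeq2 called 1 lower, and only the apolipoprotein Apoa2 separated, higher in KO (medians -0.24 in DEN/PB and 0.03 in water). Of 27 acute phase genes 5 were higher and 7 lower unadjusted, DESeq2 called 1 higher and 4 lower, and the protease inhibitor Serpina3m separated lower (medians -0.05 in DEN/PB and -0.20 in water). The 24 circadian clock genes had 4 higher unadjusted and DESeq2 called 1 higher, and none separated (medians 0.22 in DEN/PB and 0.37 in water). Time of day at killing was not given in the sources used here.

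Genes of fatty acid oxidation had medians above 0 in both treatments. Of 32 genes of fatty acid oxidation and PPARA targets, 12 were higher and 1 lower unadjusted, DESeq2 called 3 higher and 1 lower, and 5 separated higher (Fabp1, Cpt2, Acot1, Acaa1a and Acaa2) and 1 lower (Fgf21), with medians of 0.58 in DEN/PB tumours and 0.22 in water-treated liver. Fabp1, the fatty acid binding protein of liver, stood at 2831, 5232 and 3180 CPM in DEN/PB KO tumours, against 1491, 1097 and 1495 CPM in DEN/PB WT tumours, and at 4579 and 4154 CPM in water KO liver, against 3174 and 2317 CPM in water WT liver (log2 1.15, SE 0.247, adjusted p = 0.186). The hormone gene Fgf21, itself a PPARA target, went the other way, at 2.39, 2.16 and 1.66 CPM in DEN/PB KO tumours, against 5.21, 16.2 and 17.4 CPM in DEN/PB WT tumours, with no count in water KO liver, against 1.13 and 0.757 CPM in water WT liver.

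Of 25 genes of fatty acid synthesis 9 were higher and 1 lower unadjusted, and DESeq2 called 4 higher (medians 0.68 in DEN/PB and 0.06 in water). Fatty acid synthase (Fasn) and its regulator Srebf1 separated. Fasn stood at 660, 468 and 562 CPM in DEN/PB KO tumours, against 195, 189 and 279 CPM in DEN/PB WT tumours, and at 664 and 488 CPM in water KO liver, against 398 and 424 CPM in water WT liver (log2 1.01, SE 0.219, adjusted p = 0.186). All 5 KO libraries were above all 5 WT libraries. The 24 genes of cholesterol synthesis had 4 higher and 1 lower unadjusted (medians 0.08 in DEN/PB and -0.02 in water). The sterol regulator Srebf2 separated lower.

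Male-biased genes showed the widest gap between the treatments among the lists. Of 26 male-biased liver genes 19 were higher and none lower unadjusted and DESeq2 called 12 higher, with a main-effect median of 2.44. That median was 4.42 in DEN/PB tumours and -0.19 in water-treated liver. The 6 members that separated (Mup21, Cyp2u1, Nudt7, Mup3, Hsd3b5 and Slco1a1) did so by small margins in liver. Mup21, a urinary pheromone carrier, stood at 144, 220 and 135 CPM in DEN/PB KO tumours, against 4.17, 5.32 and 3.91 CPM in DEN/PB WT tumours, and at 247 and 218 CPM in water KO liver, against 124 and 169 CPM in water WT liver. Its genotype effects differed between the treatments (log2 5.22 in DEN/PB tumours and 0.67 in water-treated liver, adjusted p of the difference 1.4e-05), and reads of near-identical Mup genes can be placed on the wrong copy.

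The 25 female-biased genes had 3 higher and 5 lower unadjusted and DESeq2 called 2 lower, Cyp2b9 being one of the lower genes. The transporter Slc22a27 and the monooxygenase Fmo2 separated lower (medians -1.57 in DEN/PB and 0 in water). Of 33 CAR and PXR targets 13 were higher and 2 lower unadjusted, DESeq2 called 6 higher, and only the carboxylesterase Ces2a separated (medians 0.75 in DEN/PB and 0.04 in water). It stood at 156, 274 and 272 CPM in DEN/PB KO tumours, against 48.1, 59.1 and 67.8 CPM in DEN/PB WT tumours, and at 282 and 265 CPM in water KO liver, against 258 and 169 CPM in water WT liver.

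Lists of stress, growth and tumour genes had medians below 0 in the tumours. The 39 cell cycle genes had 1 higher and 4 lower unadjusted, and DESeq2 called 2 lower (medians -1.34 in DEN/PB tumours and 0.23 in water-treated liver, or 0.06 when genes without counts in a group stand at their limit). Of 26 immediate early genes 8 were lower and none higher unadjusted, DESeq2 called 3 lower, and Btg2, Atf3 and Fosl2 separated lower (medians -0.95 in DEN/PB and -0.01 in water). Btg2, an antiproliferative p53 target, stood at 21.9, 8.17 and 13.3 CPM in DEN/PB KO tumours, against 66, 53.8 and 43.6 CPM in DEN/PB WT tumours, and at 7.78 and 0.708 CPM in water KO liver, against 24 and 10.2 CPM in water WT liver (log2 -1.95, SE 0.467, adjusted p = 0.208). Btg2, like Cdkn1a, was highest among untreated livers in WT replicate 1.

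The 28 genes of endoplasmic reticulum stress and ATF4 had 10 lower and none higher unadjusted, DESeq2 called 2 lower, and the co-chaperone Dnajb9 and the folate enzyme Mthfd2 separated lower (medians -0.72 in DEN/PB and -0.25 in water). Dnajb9 stood at 80.1, 48.3 and 77 CPM in DEN/PB KO tumours, against 214, 181 and 102 CPM in DEN/PB WT tumours, and at 32.4 and 32.7 CPM in water KO liver, against 139 and 40.1 CPM in water WT liver. Here too WT replicate 1 was the higher of the water WT livers, and the summed level of the list was 14945 CPM in it, against 6215 CPM in replicate 2 and 8145 and 7751 CPM in water KO liver.

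Of 29 oncofetal and liver tumour markers 9 were lower and none higher unadjusted, DESeq2 called 2 lower, and Cbr3, Fgf21, Nqo1, Akr1c18 and Tff3 separated lower (medians -1.66 in DEN/PB and -0.44 in water). In liver these were low or absent. The carbonyl reductase Cbr3 stood at 22.2, 0.698 and 15.2 CPM in DEN/PB KO tumours, against 29.8, 153 and 146 CPM in DEN/PB WT tumours, and at 0.286 and 0.142 CPM in water KO liver, against 1.07 and 3.09 CPM in water WT liver. DEN/PB KO replicate 2, the library at the level of liver for this list, was the lowest KO tumour for Cbr3. In the tumours the summed level of the list overlapped between the genotypes. It was 3857, 150 and 1239 CPM in DEN/PB KO, against 3684, 4521 and 3661 CPM in DEN/PB WT. The 28 NRF2 targets had 2 higher and 5 lower unadjusted and none was called by DESeq2, and Nqo1 separated (medians -0.21 in DEN/PB and 0.07 in water). The 40 interferon-stimulated genes had 1 higher and 2 lower unadjusted and DESeq2 called 1 lower, while Oasl1 separated higher and Ifi27 and Ifih1 lower (medians -0.23 in DEN/PB and 0.16 in water).

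**Figure D4:**
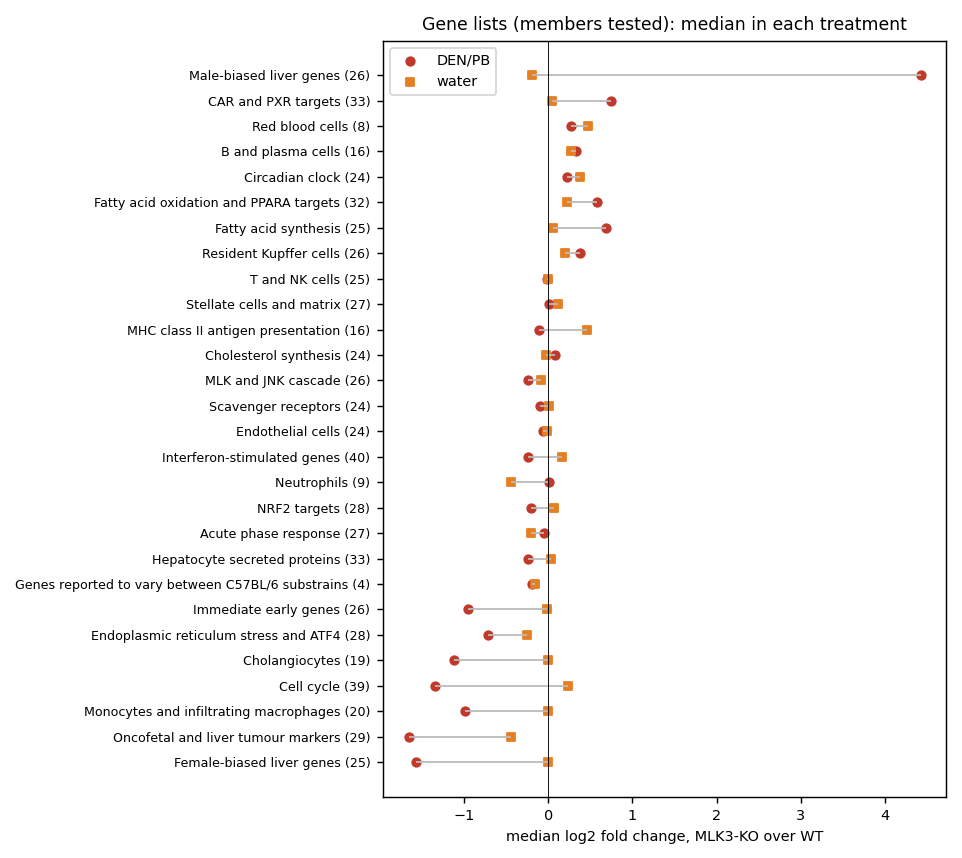
Median log2 fold change of KO over WT of the tested members of 28 gene lists, in DEN/PB tumours (circles) and in water-treated liver (squares), ordered by the median of the main effect, with the number tested in brackets. The male-biased genes show the widest gap (4.42 and -0.19). Kupffer cell genes and fatty acid oxidation genes are among several lists above 0 in both treatments. Oncofetal and endoplasmic reticulum stress genes are among several below 0 in both. The summed level of the endoplasmic reticulum stress list was 14945 and 6215 CPM in water WT liver, against 8145 and 7751 CPM in water KO liver.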

How the data were processed

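The authors deposited a table of raw counts, with 1 row for each gene and 1 column for each of the 10 libraries. BWA, featureCounts and the build mm10 are named per the submitters' processing notes. Tool versions, gene models, strandedness and the handling of multi-mapping reads were not given in the sources used here, so near-identical or overlapping genes are uncertain one by one. Columns were matched to samples by name, and 38872 of 39056 identifiers received a symbol and a GENCODE position on GRCm38. Replicates within a group differed far beyond sampling noise (chi-square per degree of freedom 39.8 to 94.9), so none was counted as a duplicate.

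Analysis of the deposited counts used edgeR 4.0.16 in R 4.3.3: filterByExpr (15811 genes), TMM scaling, a quasi-likelihood fit with treatment and genotype as additive terms, and Benjamini-Hochberg adjustment over all genes, called under 0.05. Residual degrees of freedom were 7 and the common dispersion 0.595, a coefficient of variation of 77.2%. A model with a term per group gave the effects within treatments and their difference. Adjusted p-values are edgeR's unless DESeq2 is named. CPM are TMM-scaled, and log2 fold changes are KO over WT.

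Members and lists were chosen with earlier results of these data known. Genes were named by a rule: called genes that separated, then separating genes of at least 5 CPM by p up to 24 in all, up to 3 called genes that did not separate, the 2 members of each list with the smallest p, and Map3k11 with its relatives. Not all of them are described, and some are not reported here. The script was tested on simulated counts. Alternatives were RLE scaling, DESeq2 1.42.0, voom in limma 3.58.1, other filters, the group model, a replicate block and leaving out each library. Replicate numbers carry no stated pairing, and same-numbered libraries did not deviate together.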

Additional observations from a re-analysis of the deposited data

Results flagged for a closer look

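For 10 named genes the genotype effect differed between the treatments by edgeR's test of the difference, given here as the log2 fold change of KO over WT in DEN/PB tumours minus that in water-treated liver. It was positive for 7 genes. Among the described separating genes it was 2.12 for Inmt (adjusted p = 0.0397), 1.38 for Hes6 (0.0492), 2.27 for Srd5a1 (0.0313) and 2.97 for Nat8f4 (9.87e-05). Among members of the lists it was 4.55 for the male-biased Mup21 (1.4e-05), 3.41 for Thrsp, a regulator of lipid synthesis (0.00482), and 4.59 for the P450 gene Cyp2c37 (0.000437). Thrsp and Cyp2c37 overlapped between the genotypes in water-treated liver.

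It was negative for 3 secreted hepatocyte proteins, at -1.75 for fetuin (Ahsg, adjusted p = 0.0147), -1.79 for Apoa1 (0.00949) and -1.43 for albumin (Alb, 0.0275). Albumin stood at 21397 to 26413 CPM in DEN/PB KO tumours, against 50498 to 62170 CPM in DEN/PB WT tumours, and at 28908 and 25331 CPM in water KO liver, against 22804 and 24460 CPM in water WT liver. The genotypes thus separated in opposite directions for Alb, as they did for Apoa1.

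The urea cycle enzyme gene Cps1 separated in opposite directions too, with all KO libraries above WT in the tumours (log2 0.70) and below WT in liver (log2 -0.25). It stood at 764, 1235 and 1237 CPM in DEN/PB KO tumours, against 616, 643 and 735 CPM in DEN/PB WT tumours, and at 1400 and 1413 CPM in water KO liver, against 1763 and 1582 CPM in water WT liver. It was listed for the direction alone, and the edgeR test of the difference did not pass (adjusted p = 0.233). With 2 or 3 libraries a group no library was tested as an outlier.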

How the results depend on the processing

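Counts of called genes (2 higher and 1 lower in KO) depended on the method more than on the scaling. RLE scaling called the same 3 genes, DESeq2 266 higher and 116 lower, voom 10 higher and 13 lower, no filter on low counts 377 higher and 221 lower, a minimum mean of 10 CPM 2 higher and 0 lower (edgeR, 511 lower at an unadjusted p under 0.05; Cyp2b9 adjusted p = 0.0628), and a term per group 184 higher and 45 lower. With the replicate block, which pairs libraries that share only a number, 1 gene was called higher (Marco, adjusted p = 0.00392) and 1 lower (Gpnmb), and Tmem254b (0.0655) and Cyp2b9 (0.099) missed the threshold. Same-numbered libraries correlated at -0.009 to 0.033 in their deviations from group means. Leaving out 1 library at a time gave 0 to 28 genes higher and 0 to 16 lower, the highest counts without water WT replicate 2. Adjusted p then ran from 0.000139 to 0.128 for Marco, 0.00022 to 0.128 for Tmem254b and 0.0136 to 0.33 for Cyp2b9. Separating genes numbered 430 to 712 higher and 371 to 585 lower with a library left out, 323 and 279 with RLE scaling and 335 and 279 without scaling factors. No gene within 5 or 20 Mb of Map3k11 was called by edgeR, with 197 and 285 tested (26 and 37 at an unadjusted p under 0.05). These were 13.2% and 13%, against 11.1% of the rest for each window. DESeq2 called 9 and 11 genes in the 2 windows, beside 2.6% of all genes with an adjusted p. The main-effect median of the male-biased genes was 2.81 in DESeq2, and 2 lists' medians moved by more than 0.1 when genes without counts in a group stood at their limit. Of 1489 log2 fold changes of 89 named genes under these alternatives, 9 reversed, in 5 genes that were not called. Cd5l stood at 0.012 with a term per group. With a library left out, Cd5l ran from -0.28 to 0.052, Ddx3y from -0.0080 to 0.25, Ttr from -0.012 to 0.24, Vsig4 from -0.076 to 0.24 and Entpd4 from -0.30 to 1.59. The cause was not tested. Between water groups of 2 libraries, edgeR called 0 genes higher and 1 lower (1151 in either direction at an unadjusted p under 0.05).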
